A study of Mus musculus with 10 samples.

Results

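Integrins and laminins are the receptors and one of the main ligands by which cells of the vessel wall hold on to their matrix. An integrin is a dimer of an alpha and a beta chain that spans the plasma membrane, binds collagen, laminin, fibronectin or other ligands outside the cell and is linked to actin through talin and kindlin inside it. A laminin is a trimer of an alpha, a beta and a gamma chain that polymerises into the sheet on which basement membranes are built, around each smooth muscle cell and under the endothelium of the aorta. The genes described here are those whose symbol names an integrin alpha or beta chain or a laminin alpha, beta or gamma chain. They numbered 34 of the 18193 genes that the array represents by a probe set with 1 symbol, 24 of them integrin and 10 laminin genes. Where a gene has several probe sets, the one brightest on average stands for it. Itgad and Itga11 are not analysed here. 30 of the 34 genes, 21 integrin and 9 laminin, exceeded a log2 value of 4 on at least 4 arrays and were tested among 14321 genes.

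Total RNA was taken from whole aorta of male C57BL/6 mice and hybridised to 1-colour Affymetrix arrays. The 5 knockout samples came from Ptgds-/- mice, which lack lipocalin-type prostaglandin D synthase (L-PGDS), an enzyme that makes prostaglandin D2, and are labelled biological replicates 1 to 5. The 4 wild type samples are biological replicates 1, 3, 4 and 5, since wild type replicate 2 carries no values and is labelled as excluded. Age, litter, substrain and the design of the targeted allele are not in the labels, and no group received a treatment. The question was how the aorta's transcripts differ without L-PGDS, and here how those of its matrix receptors and laminins differ. The labels do not say whether an array holds RNA of 1 mouse. A difference is the knockout mean less the wild type mean of log2 values, its SE is the standard error from limma, and p-values were adjusted over all 14321 genes.

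The targeted gene bore out the labels: Ptgds stood between 3.67 and 4.40 on the 5 knockout arrays, against 8.68 to 10.31 on the 4 wild type arrays, with an adjusted p of 0.00059 (limma). Where its probes lie relative to the deleted part was not determined here. Smooth muscle markers such as Acta2, Myh11 and Tagln exceeded the floor of 4 on every array, as did 8 of 8 genes of that list. Wild type replicate 3 stood apart from the rest, with a mean correlation of 0.983 with the other arrays, against 0.990 to 0.992 for the other 8. Its mean over the 10 neuron markers was 10.74, against 8.97 on knockout replicate 1 and 4.77 to 7.40 on the other 7 arrays. Skeletal muscle markers averaged 8.80 on knockout replicate 3 and 4.29 to 4.85 elsewhere. Adipocyte markers averaged 10.70 to 11.52 on the knockout and 11.25 to 11.71 on the wild type arrays, with 8 of 8 lower in the knockout mean. Of all tested genes, 56.7% had a higher knockout mean. In a bulk sample, fewer cells of a type and less RNA per cell cannot be told apart.

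**Figure D1:**
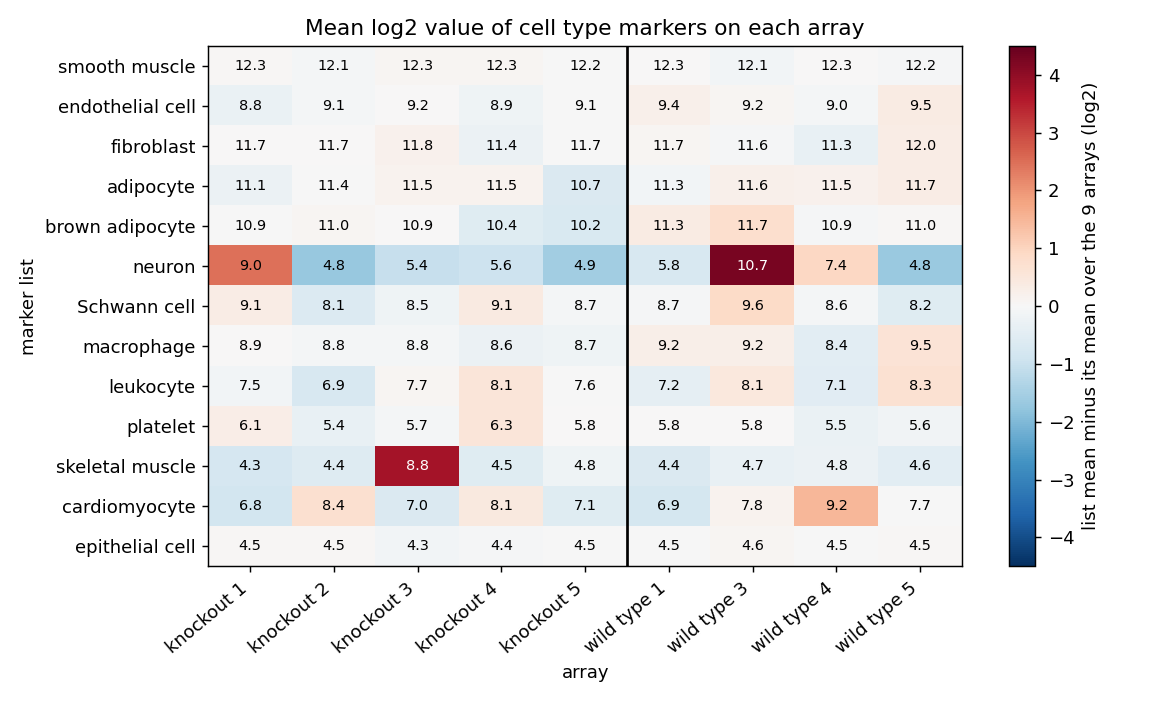
Mean log2 value of the markers of 13 cell types (rows) on each of the 9 arrays (columns, knockout left of the line and wild type right). Colour gives the distance from the list's mean over the 9 arrays. Neuron markers were highest on wild type replicate 3 (10.74) and knockout replicate 1 (8.97), and skeletal muscle markers on knockout replicate 3 (8.80).

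None of the 30 tested integrin and laminin genes passed an adjusted p of 0.05 in limma, where 0.0559% of all tested genes did. At an unadjusted p under 0.05 there were 10 of them, 8 higher and 2 lower in the knockout. That is 33.3% of the tested members, against 19.9% of all tested genes. The 8 higher genes are 26.7% of the tested members, against 12.8% of all tested genes, and the 2 lower genes 6.67%, against 7.12%. The higher group held the collagen receptor chain Itga10, the laminin receptor chains Itga7 and Itga3, the beta chains Itgb3, Itgb5 and Itgb8, and the laminin chains Lama5 and Lamc3. The lower group held Itga5, the alpha chain of the fibronectin receptor, and Itgax, an alpha chain of dendritic cells and macrophages. With the adipocyte markers as a covariate, 5 genes were higher and 2 lower at that threshold, where 6.57% of all tested genes were higher and 3.82% lower; Itga3, Itgb5 and Lama5 were no longer among them. Of the smooth muscle markers, 3 of 8 were higher (Tagln, Smtn and Lmod1) and 1 was lower (Myocd) at the same threshold; the part of muscle content in these counts was not tested. The median change of the 30 genes was 0.081, against 0.027 over all tested genes, and 17 of the 30 lay above 0 (56.7%, the same share as over all tested genes). The median was 0.047 without knockout replicate 5 and 0.045 with array weights, where the median of all tested genes was 0.022 and 0.024.

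The groups did not overlap for 3 of the 30 genes, 10% of them, against 6.76% of all tested genes: Itga7 and Itgb5 were higher and Itga5 lower on every knockout array. By direction, 4.59% of all tested genes lay wholly higher and 2.16% wholly lower. Without wild type replicate 1 the members' count was 7, where 19.7% of all tested genes had groups apart. It was 6 without wild type replicate 4 (11.2% of all tested genes), 5 without knockout replicate 1 (9.48%) and 5 without knockout replicate 4 (10.4%). Wild type replicate 1 also set the count of calls. Leaving it out, 5 of the 30 genes passed an adjusted p of 0.05 in limma, 16.7% of them, where 7.34% of all tested genes passed. Itga10, Itga3, Itga7 and Itgb3 were the 4 higher ones, where 5.24% of all tested genes were called higher, and Itga5 was the lower one, where 2.1% were called lower. In each of these 5, wild type replicate 1 is the wild type array nearest to the knockout mean, so leaving it out had to enlarge the difference. Its mean correlation with the other arrays, 0.992, was the highest of the 9, so that value gives no reason to leave it out. In the fits that left out any other single array, 0 of the 30 passed, with 9 to 12 at an unadjusted p under 0.05, where 13.2% to 18.9% of all tested genes were. Without wild type replicate 3, the array rich in neuron markers, 7 were higher and 3 lower at that p, where 9.09% of all tested genes were higher and 6.24% lower. In that fit 4 had groups that did not overlap, where 9.53% of all tested genes had, and the median was 0.056.

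**Figure D2:**
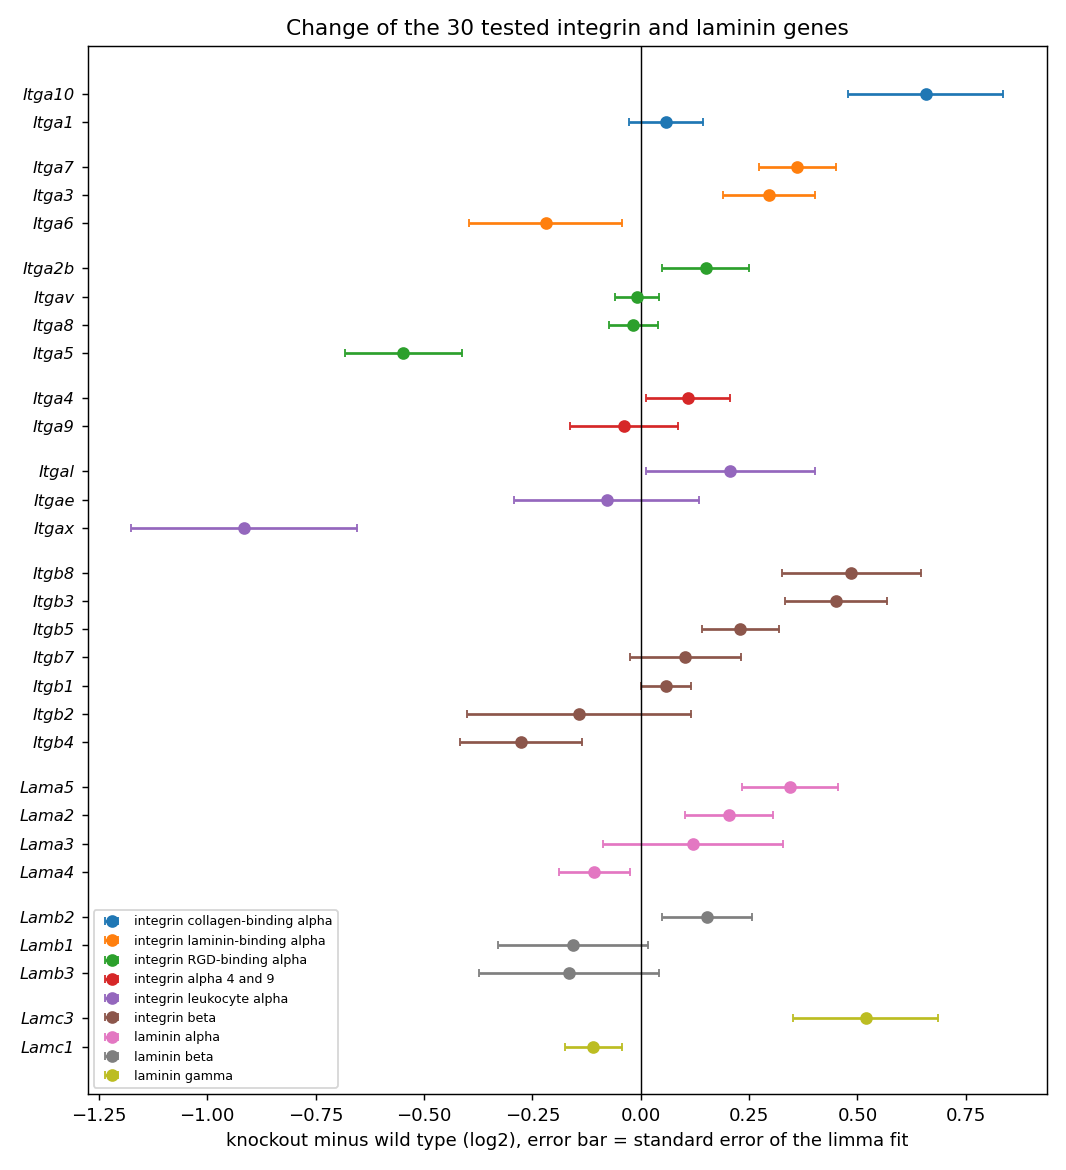
Knockout minus wild type change (log2, horizontal axis) of the 30 tested genes, grouped by role; points are the limma estimate and bars its standard error. Itga10 at 0.66 lies highest and Itgax at −0.92 lowest, while Itgav (−0.0089), Itga8 (−0.017) and Itgb1 (0.059) lie close to 0.

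Itga5 encodes the integrin alpha chain that joins beta 1 to form the main fibronectin receptor. On probe set 1423267_s_at its log2 values were 12.20, 11.86, 12.16, 12.24 and 12.22 on knockout replicates 1 to 5, against 12.27, 12.77, 12.85 and 12.86 on wild type replicates 1, 3, 4 and 5. The knockout arrays all lay below the wild type arrays, but wild type replicate 1 lay only just above the highest knockout array. The difference was −0.55 (SE 0.14), which is 1.46-fold lower in the knockout, and limma gave it an adjusted p of 0.131. Without wild type replicate 1 it was −0.69 (SE 0.094), with an adjusted p of 0.012. Without knockout replicate 2 it was −0.48.

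The other 3 probe sets of Itga5 showed lower knockout means too, by −0.78, −0.90 and −0.83. In the fit over all tested probe sets, the 4 had adjusted p-values (limma) of 0.0857 to 0.194. On 1423268_at the groups again did not overlap, with 6.15 to 6.41 on the knockout arrays against 6.83 to 7.67 on the wild type arrays. On 1458996_at the knockout arrays ran from 9.17 to 10.12 and on 1457561_at from 6.03 to 6.72, and wild type replicate 1 lay inside both ranges at 9.41 and 6.04. Wild type replicate 1 was thus the lowest wild type array on each of the 4 probe sets.

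The stretches just before the start of Itga5 and Itgb5 are shown because these are the members with groups that did not overlap for which a promoter entry was at hand; 22 of the 34 genes have one in the RefSeq table of build GRCm38.p6. Each is the 250 bases before the annotated start, 5′ to 3′ on the gene's strand, with matches to the Sp1 box GGGCGG on either strand in capitals. That of Itga5 is chr15:103366792-103367041 (minus strand) and that of Itgb5 chr16:33829415-33829664 (plus strand).
Itga5: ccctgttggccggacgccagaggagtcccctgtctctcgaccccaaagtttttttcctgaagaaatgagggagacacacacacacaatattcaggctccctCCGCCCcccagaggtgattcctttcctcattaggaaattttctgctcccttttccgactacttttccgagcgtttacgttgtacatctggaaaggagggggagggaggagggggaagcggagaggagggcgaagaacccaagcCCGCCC
Itgb5: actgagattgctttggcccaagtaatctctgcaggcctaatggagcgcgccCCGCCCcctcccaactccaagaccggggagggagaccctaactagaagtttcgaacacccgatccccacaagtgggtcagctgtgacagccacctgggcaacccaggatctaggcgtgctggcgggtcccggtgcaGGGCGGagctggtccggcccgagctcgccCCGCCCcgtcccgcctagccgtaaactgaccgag
The Itga5 window holds 2 Sp1 boxes and the Itgb5 window 3, and none of these overlaps another motif searched. An Sp1 box is present in 32.7% of the 32851 windows of this length in the table. The AP-1 site TGANTCA (6.75% of windows), the CArG box bound by serum response factor (1.47%) and TATAAA (12.4%), searched on both strands, have no match in either window.

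Of the other integrin alpha chains that read the RGD motif of fibronectin and vitronectin, Itgav and Itga8 varied least of all 30 genes. Itgav, the partner of several beta chains, was 12.64 to 12.75 on the knockout and 12.65 to 12.77 on the wild type arrays. Its difference was −0.0089 (SE 0.050, adjusted p 0.941, limma). Itga8, a chain abundant in smooth muscle, was 12.99 to 13.12 on the knockout and 12.97 to 13.14 on the wild type arrays. Its difference was −0.017 (SE 0.056, adjusted p 0.892, limma). In both genes each group's range held most of the other's. Itga2b, the platelet chain of the fibrinogen receptor, was 6.14 to 6.50 on the knockout and 5.95 to 6.26 on the wild type arrays, with a difference of 0.15 (SE 0.10).

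The collagen receptor chains differed between themselves. Itga10, an alpha chain best known from cartilage, stood at 8.95, 9.36, 9.55, 9.15 and 9.57 on knockout replicates 1 to 5, against 9.03, 8.31, 8.82 and 8.48 on wild type replicates 1, 3, 4 and 5. A single pair overlapped, since wild type replicate 1 lay above knockout replicate 1. The difference was 0.66 (SE 0.18, 1.58-fold higher) with an adjusted p of 0.136 (limma), or 0.78 (SE 0.17, adjusted p 0.038) without wild type replicate 1. Without wild type replicate 3 it was 0.54. It rests on the gene's only probe set. Itga1, the alpha chain of the collagen receptor of smooth muscle, was 11.57 to 11.87 on the knockout and 11.62 to 11.90 on the wild type arrays. Its 2 tested probe sets differed in sign, at 0.058 and −0.13. Itga2, the collagen receptor chain of platelets and epithelia, stayed below 4 on every array and was not tested.

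Of the 3 laminin receptor alpha chains, Itga7 and Itga3 had higher means in knockout aortas and Itga6 a lower one. Itga7, the laminin-binding partner of beta 1 in skeletal, cardiac and vascular muscle, had values of 8.67, 8.56, 8.60, 8.52 and 8.51 on knockout replicates 1 to 5. On wild type replicates 1, 3, 4 and 5 it had 8.43, 7.99, 8.27 and 8.15. No wild type array reached the lowest knockout array. The difference was 0.36 (SE 0.089, 1.28-fold higher), with an adjusted p of 0.131 (limma), and 0.44 (SE 0.076, adjusted p 0.021) without wild type replicate 1. Leaving out wild type replicate 3 gave 0.29. Skeletal muscle markers were high on knockout replicate 3 alone, and Itga7 was 8.60 there and 8.51 to 8.67 on the other knockout arrays; the part of skeletal muscle in its difference was not tested.

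Itga3, whose chain forms a laminin receptor with beta 1, was even among knockout arrays at 10.91, 10.88, 10.85, 10.82 and 11.02 for replicates 1 to 5. Wild type replicates 1, 3, 4 and 5 gave 10.91, 10.45, 10.65 and 10.39. Wild type replicate 1 lay inside the knockout range and the other 3 wild type arrays below it. The difference was 0.30 (SE 0.11, adjusted p 0.186, limma), and 0.40 (SE 0.077, adjusted p 0.026) without wild type replicate 1. Leaving out wild type replicate 5 gave 0.23. A fit with adipocyte markers as covariate gave 0.18 (SE 0.096, adjusted p 0.547). Its 2 further probe sets differed by 0.32 and 0.11. Itga6, the laminin receptor chain shared by endothelium, epithelium and Schwann cells, was 9.88 to 10.41 on the knockout and 9.88 to 10.81 on the wild type arrays, with a difference of −0.22 (SE 0.18). Its highest value was on wild type replicate 3, where the Schwann cell markers were also highest (9.59, against 8.13 to 9.14 on the other 8 arrays); the part of those cells in it was not tested.

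**Figure D3:**
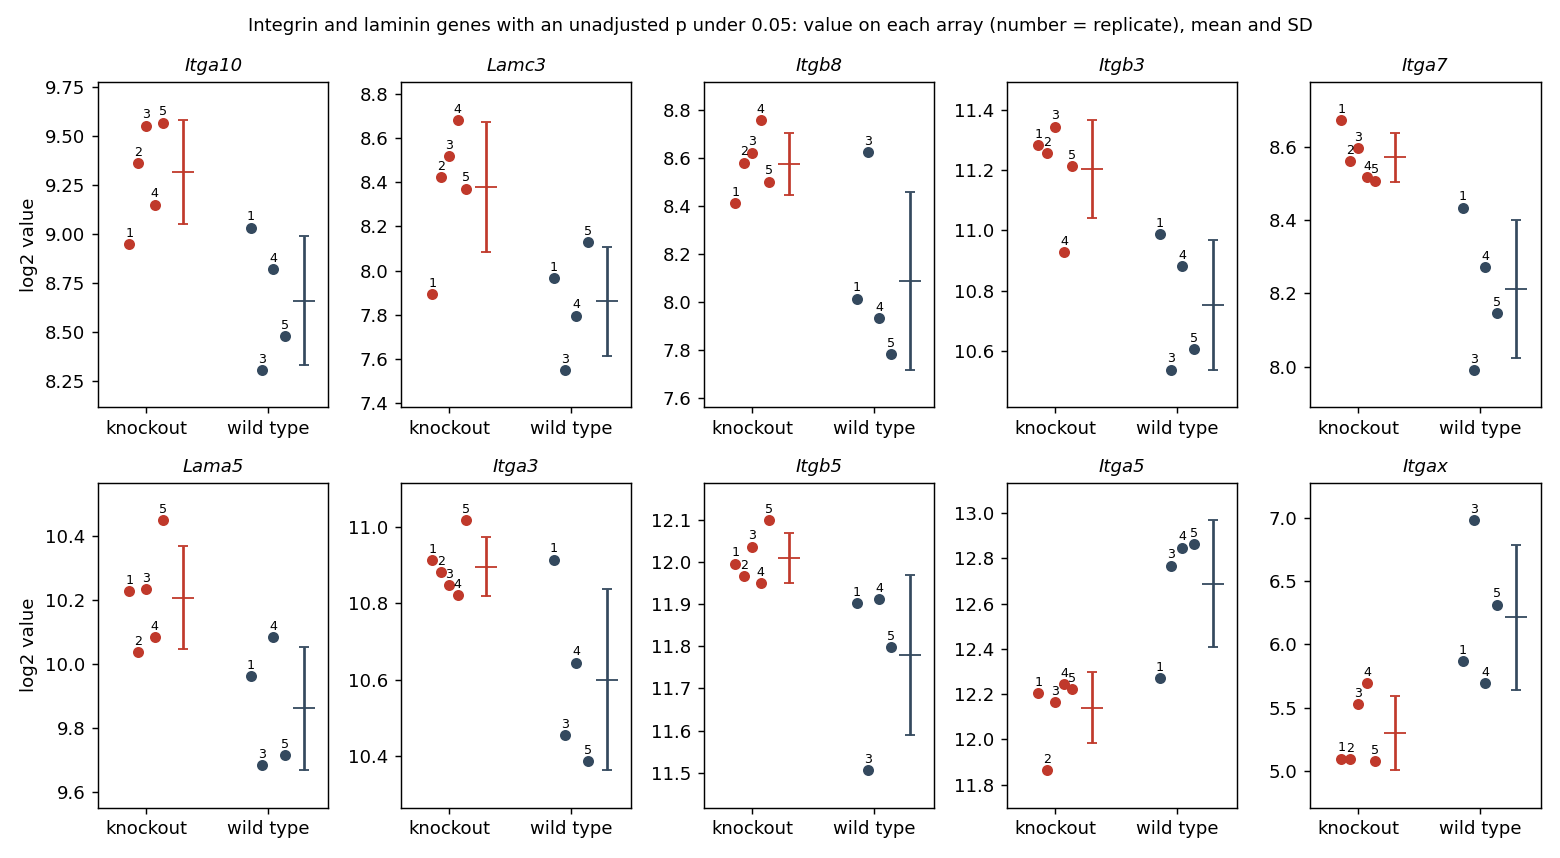
Log2 value (vertical axis) on each array, marked by replicate number, for the 10 genes with an unadjusted p under 0.05, knockout left and wild type right; the bar beside each group shows its mean and SD. Itga7, Itgb5 and Itga5 have groups that do not overlap, and in Itga10, Itga3, Itga7, Itgb3 and Itga5 wild type replicate 1 is the wild type array nearest to the knockout mean.

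Of the beta chains that pair with Itgav, Itgb3, Itgb5 and Itgb8 were higher in the knockout, while Itgb1, the partner of most alpha chains above, was close to 0. Itgb3, which forms the vitronectin and osteopontin receptor with alpha v and the fibrinogen receptor of platelets with alpha IIb, was at 11.28, 11.25, 11.34, 10.93 and 11.21 on knockout replicates 1 to 5. Against these stood 10.99, 10.54, 10.88 and 10.61 on wild type replicates 1, 3, 4 and 5. The groups overlapped only because wild type replicate 1 lay above knockout replicate 4. With wild type replicate 1 left out, the difference was 0.53 (SE 0.12, adjusted p 0.036, limma). With wild type replicate 3 left out, it was 0.38. Over 9 arrays it was 0.45 (SE 0.12, adjusted p 0.134), and the dimmer probe set differed by 0.22. The platelet marker list averaged 5.44 to 6.31 on the knockout and 5.46 to 5.78 on the wild type arrays, with 5 of its 7 tested genes higher in the knockout and 0 with an unadjusted p under 0.05 in limma. Over all tested genes, 56.7% were higher in the knockout and 19.9% had an unadjusted p under 0.05. Gp6, a platelet collagen receptor, lay below 4 on all arrays, and the part of platelets in the value of Itgb3 was not tested.

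Itgb5, which forms another vitronectin receptor with alpha v, was tightly grouped at 12.00, 11.97, 12.04, 11.95 and 12.10 on knockout replicates 1 to 5. The wild type values were 11.90, 11.51, 11.91 and 11.80 on replicates 1, 3, 4 and 5. Every knockout array lay above every wild type array, by 0.04 at the closest pair. The difference was 0.23 (SE 0.088, adjusted p 0.206, limma). It was 0.14 (SE 0.059) without wild type replicate 3, the lowest array, 0.19 with the mean of the neuron and Schwann cell markers as a covariate and 0.18 (SE 0.10) with that of the adipocyte markers. The other 3 probe sets of Itgb5 differed by 0.16, 0.26 and 0.20, each with groups that touched or overlapped. The name of the represented probe set ends in x_at, by which the maker marks probes that may also bind other transcripts.

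Itgb8, whose dimer with alpha v is known for activating latent TGF-beta, was at 8.41, 8.58, 8.62, 8.76 and 8.50 on knockout replicates 1 to 5. It was at 8.02, 8.63, 7.93 and 7.78 on wild type replicates 1, 3, 4 and 5. Wild type replicate 3 lay within the knockout range and the other 3 wild type arrays below every knockout array. The difference was 0.49 (SE 0.16, adjusted p 0.164, limma). Without wild type replicate 5 it was 0.38. Without wild type replicate 3 it was 0.67 (SE 0.092, adjusted p 0.105). Neuron and Schwann cell markers were highest on that array, and with their mean as a covariate the difference was 0.57 (SE 0.14). The gene has 1 probe set.

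Itgb1 was 11.33 to 11.45 on the knockout and 11.23 to 11.42 on the wild type arrays, with a difference of 0.059 (SE 0.058, adjusted p 0.589, limma). Its 5 tested probe sets differed by −0.0053 to 0.059. Itgb4, which joins alpha 6 in hemidesmosomes, was lower in the knockout by −0.28 (SE 0.14), with ranges that overlapped. Itgb7, a lymphocyte chain, differed by 0.10 (SE 0.13), and Itgb6, an epithelial chain, stayed below 4 on every array. The 2 remaining alpha chains, which bind VCAM-1, fibronectin and other ligands, were near 0. Itga4 was 8.79 to 9.11 on the knockout and 8.66 to 9.03 on the wild type arrays (0.11, SE 0.097), and its difference was 0.044 without wild type replicate 4 and 0.38 on the probe set with the largest SD. Itga9 was 11.00 to 11.30 on the knockout and 10.97 to 11.54 on the wild type arrays (−0.039, SE 0.12).

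Among leukocyte integrins, Itgax had the largest difference of all 30 genes. Its product, CD11c, pairs with beta 2 on dendritic cells and some macrophages. The values were 5.10, 5.09, 5.53, 5.70 and 5.08 on knockout replicates 1 to 5, against 5.87, 6.98, 5.69 and 6.31 on wild type replicates 1, 3, 4 and 5. Knockout replicate 4 and wild type replicate 4 were level, and otherwise the groups lay apart. The difference was −0.92 (SE 0.26), or 1.89-fold lower in the knockout, at an adjusted p of 0.141 (limma), and −0.66 (SE 0.19) without wild type replicate 3. It rests on 1 probe set, whose values lie not far above the floor.

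The other leukocyte chains had smaller differences, and each had groups that overlapped. Itgb2, the common beta chain of leukocytes, was 6.21 to 6.85 on the knockout and 5.73 to 7.08 on the wild type arrays (−0.14, SE 0.26). Itgal, the chain of LFA-1 on lymphocytes, differed by 0.21 (SE 0.20), and Itgae, the chain that binds E-cadherin, by −0.079 (SE 0.21). Itgam, the chain of CD11b, stayed below 4 on every array. Macrophage markers averaged 8.63 to 8.92 on the knockout and 8.42 to 9.53 on the wild type arrays. All 10 of them had lower knockout means and 1, Cd163, had an unadjusted p under 0.05 (limma). Of all tested genes, 56.7% had a higher knockout mean and 7.12% were lower at that p. The broader leukocyte list ran from 6.88 to 8.14 on the knockout and from 7.08 to 8.27 on the wild type arrays, with 3 of 9 genes higher in the knockout and 0 at an unadjusted p under 0.05 in limma. The part of macrophages and other leukocytes in the value of Itgax was not tested.

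**Figure D4:**
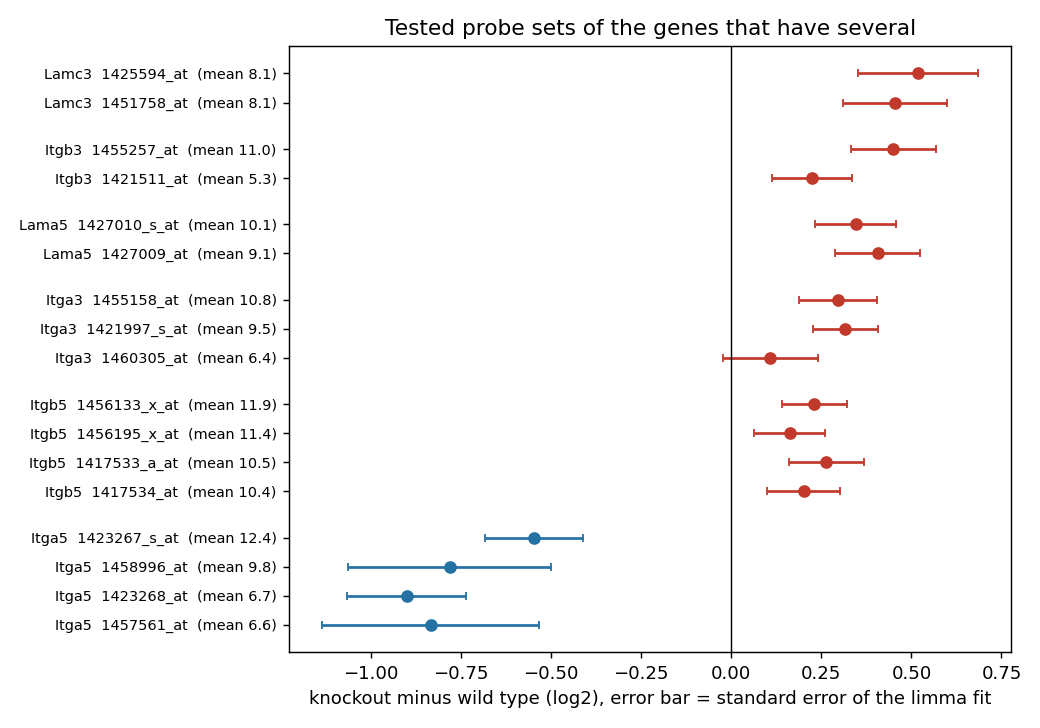
Knockout minus wild type change (log2, horizontal axis, bars are the standard error of the limma fit) of each tested probe set of the 6 genes with an unadjusted p under 0.05 and more than 1 tested probe set, with its mean level over the 9 arrays. All probe sets of a gene lie on the same side of 0; the 4 of Itga5 run from −0.90 to −0.55.

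Among the laminin alpha chains, Lama5 stood higher in knockout aortas. Its chain is part of the laminin that endothelial and smooth muscle basement membranes carry. Knockout replicates 1 to 5 gave 10.23, 10.04, 10.23, 10.09 and 10.45. Wild type replicates 1, 3, 4 and 5 gave 9.96, 9.69, 10.08 and 9.72. Wild type replicate 4 lay above knockout replicate 2, and no other pair overlapped. The difference was 0.35 (SE 0.11, 1.27-fold higher), with an adjusted p of 0.159 (limma), and the second tested probe set differed by 0.41 (SE 0.12). With the adipocyte markers as a covariate the difference was 0.23 (SE 0.10, adjusted p 0.493). Of the endothelial markers, 9 of 10 had lower knockout means, 5 of them with an unadjusted p under 0.05 (limma). Over all tested genes, 7.12% were lower at that p and 56.7% had a higher knockout mean. The mean of the endothelial markers was 8.85 to 9.16 on the knockout and 9.03 to 9.51 on the wild type arrays. The part of endothelial cells in the value of Lama5 was not tested.

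Lama4, the other alpha chain of endothelial basement membranes, was 11.21 to 11.45 on the knockout and 11.18 to 11.52 on the wild type arrays (−0.11, SE 0.082). Lama2, the alpha chain of muscle and nerve basement membranes, was 11.41 to 11.80 on the knockout and 11.19 to 11.60 on the wild type arrays (0.20, SE 0.10). Lama3, a chain of epithelial laminin, differed by 0.12 (SE 0.21), with a knockout range of 6.40 to 7.58 that held all wild type arrays. Lama1, the alpha chain of embryonic basement membranes, stayed below 4 on every array.

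Of the gamma chains, Lamc3 was higher in the knockout and Lamc1 was not. Lamc3, a gamma chain with a narrower distribution than gamma 1, was at 7.89, 8.42, 8.52, 8.68 and 8.37 on knockout replicates 1 to 5. It was at 7.97, 7.55, 7.80 and 8.13 on wild type replicates 1, 3, 4 and 5. Knockout replicate 1 lay among the wild type arrays, and the other 4 knockout arrays lay above all of them. The difference was 0.52 (SE 0.17, 1.43-fold higher, adjusted p 0.159, limma), and the second probe set differed by 0.45 (SE 0.14). It was 0.40 with the mean of the neuron and Schwann cell markers as a covariate. Lamc3 lies on the chromosome of Ptgds, 112 tested genes away in GRCm38.p6 gene order. Also on it are Itga8 (74 tested genes away, −0.017), Itga6 (267, −0.22), Itga4 (305, 0.11), Itgav (313, −0.0089) and Lama5 (972, 0.35). The part of linkage to the targeted gene in any of these was not tested.

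Lamc1, the gamma chain of nearly all laminins of the vessel wall, was 10.42 to 10.69 on the knockout and 10.60 to 10.76 on the wild type arrays (−0.11, SE 0.066). The beta chains were spread around 0. Lamb2, the beta chain of mature vessel and muscle laminins, was 11.05, 11.06, 11.25, 10.97 and 10.96 on knockout replicates 1 to 5, against 11.18, 10.80, 10.70 and 10.94 on wild type replicates 1, 3, 4 and 5. Wild type replicate 1 alone lay within the knockout range. The difference was 0.15 (SE 0.10, adjusted p 0.433, limma), with 0.25 when wild type replicate 1 was left out and 0.087 when wild type replicate 4 was. Lamb1, the beta chain of early and endothelial laminins, differed by −0.16 (SE 0.17), with 3 tested probe sets from −0.26 to −0.16. Lamb3, an epithelial chain, differed by −0.17 (SE 0.21) at mean values near 4.2, close to the floor.

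**Figure D5:**
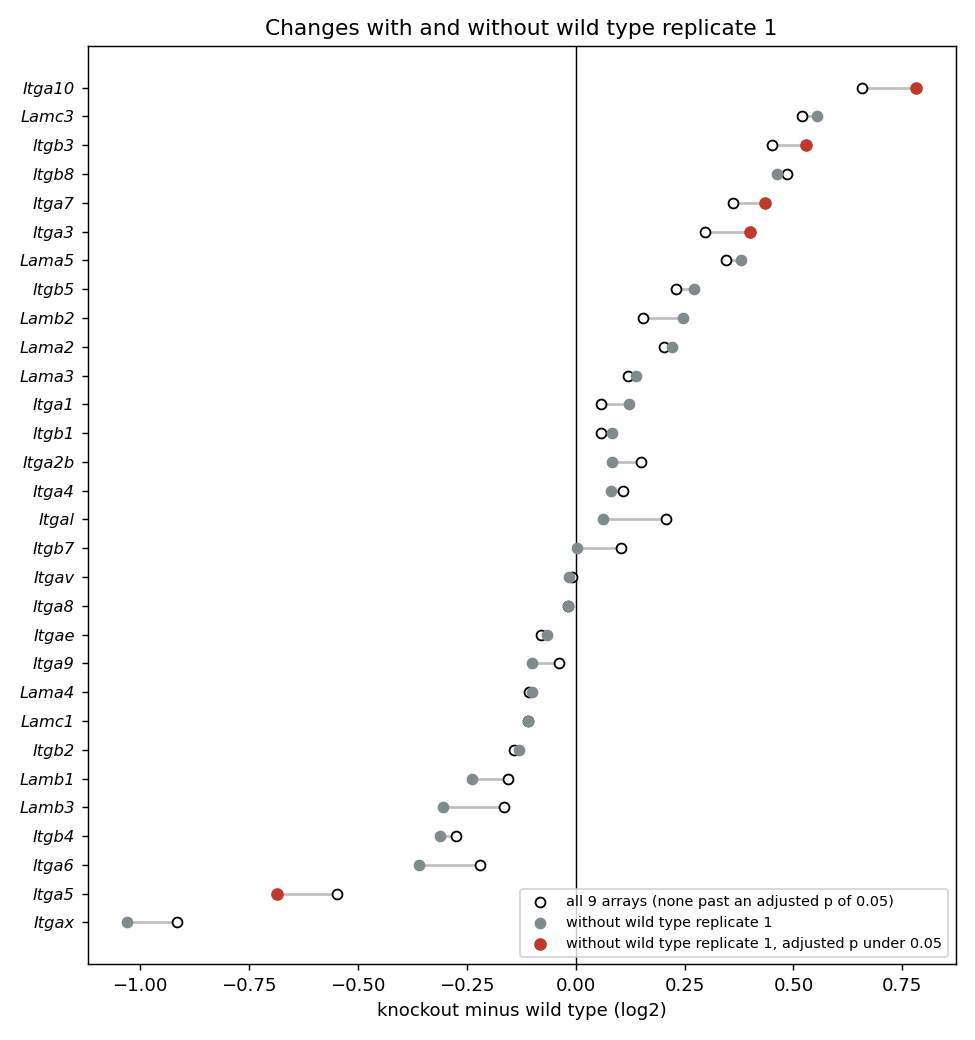
Knockout minus wild type change (log2, horizontal axis) of the 30 tested genes over all 9 arrays (open points) and without wild type replicate 1 (filled points, red where the adjusted p is under 0.05). The 5 red points are Itga10, Itgb3, Itga7, Itga3 and Itga5, each farther from 0 than its open point. This had to be so, since wild type replicate 1 is their wild type array nearest to the knockout mean.

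The spread among replicates differed widely between the genes. The within-group SD was 0.047 for Itgav, 0.064 for Itga8 and 0.068 for Itgb1, against 0.43 for Itgb2 and 0.44 for Itgax. Of the 17 genes with more than 1 tested probe set, 12 had all of them on the same side of 0, and among the 6 of these with an unadjusted p under 0.05 all did. The remaining 20 tested genes, at an unadjusted p of 0.05 or more, had differences from −0.28 (Itgb4) to 0.21 (Itgal). For the 4 untested genes all values lay between 2.35 and 3.90.

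Of the lists of other components that integrins and laminins work with, 0 genes passed an adjusted p of 0.05 in limma. At an unadjusted p under 0.05 were 6.25% of the basement membrane partners, 13.6% of the other ligands and 16.7% of the adaptors and kinases, against 19.9% of all tested genes. Of 16 tested basement membrane partners, such as nidogens, perlecan and type IV collagen chains, 1 was past that unadjusted p and their median was 0.036. This was Agrn, which encodes the laminin-binding proteoglycan agrin: it was 11.12 to 11.26 on the knockout and 10.93 to 11.06 on the wild type arrays, a difference of 0.16 (SE 0.055, adjusted p 0.171). The next smallest p-values belonged to the nidogen gene Nid2 at −0.18 (SE 0.093) and the netrin gene Ntn4 at −0.22 (SE 0.13).

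Among 22 tested integrin ligands other than laminins, 1 was higher and 2 were lower at an unadjusted p under 0.05, with a median of −0.021. Thbs1, the matricellular protein thrombospondin 1, was 7.28 to 8.73 on the knockout and 8.64 to 10.07 on the wild type arrays (−1.07, SE 0.35). Emilin1, a glycoprotein of elastic fibres, was 8.19 to 8.58 on the knockout and 7.62 to 8.33 on the wild type arrays (0.43, SE 0.14). Ccn2, connective tissue growth factor, was 13.01 to 13.21 on the knockout and 13.18 to 13.40 on the wild type arrays (−0.19, SE 0.067). Their adjusted p-values (limma) lay between 0.164 and 0.187.

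Inside the cell, 42 adaptors and kinases of integrin adhesions were tested; 4 were higher and 3 lower at an unadjusted p under 0.05, with a median of 0.026. Flnc, the muscle filamin that crosslinks actin, was 9.85 to 10.22 on the knockout and 10.01 to 11.40 on the wild type arrays (−0.82, SE 0.25). Its lowest wild type array was again replicate 1. Ptk2b, the kinase PYK2, was 8.13 to 8.66 on the knockout and 8.47 to 9.48 on the wild type arrays (−0.56, SE 0.20). Git2, a scaffold of focal adhesions, was 11.32 to 11.56 on the knockout and 11.14 to 11.29 on the wild type arrays (0.19, SE 0.068). The adjusted p-values (limma) of these 3 were 0.150 to 0.188.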

How the data were processed

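The submitters' processing notes name GCRMA, a method that removes background, equalises arrays and summarises each probe set, as what the authors ran before they deposited the values. Its version is not given in the sources used here, and that the deposited values are log2 was inferred from their range. 1 of the 10 columns, wild type replicate 2, is empty. Of 45101 probe sets, 34945 have 1 gene symbol in the platform annotation, 932 several and 9211 none. Control probe sets that carry 1 symbol were left out of the first count. Probe sets over 4 on at least 4 arrays were kept (26504), each gene by its brightest (14321 genes). Knockout and wild type were tested by limma 3.58.1 (lmFit and eBayes without covariates, under R 4.3.3) with Benjamini-Hochberg adjustment over all genes at 0.05. The procedure was also run on simulated data with noise drawn independently for each gene and array. Those data held no differences in tissue content between arrays, so they do not show how the procedure handles such differences. The number of arrays limits precision.

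The members and lists were chosen with earlier results of these data known, so list counts are given beside the share over all genes and no list was tested. Values per array were given for genes with an unadjusted p under 0.05 or groups that do not overlap, otherwise for the gene with the smallest p of a role class, and for lists the genes past the threshold or the 3 with the smallest p. Levels of different probe sets were not compared. Alternatives were normalization, centring, filter, probe set rule, limma options, array weights, replicate block, covariates and leaving out each array.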

Additional observations from a re-analysis of the deposited data

Results flagged for a closer look

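On single arrays, 5 of 68 combinations of gene and genotype had a highest or lowest value whose gap to the next array was large for the group's range, where chance gives about 1 in 20. For Itga5 this held in both groups: knockout replicate 2 was at 11.86, with the next at 12.16, and wild type replicate 1 was at 12.27, with the next at 12.77. Lama4 was at 11.45 on knockout replicate 4, with the next at 11.24. Lama3 was at 6.65 on wild type replicate 3, with the next at 6.87, and Itga2, below the floor, at 3.54 on wild type replicate 5, with the next at 3.45.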

How the results depend on the processing

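For 12 named genes and 20 alternatives, 234 of 239 values kept their direction and side of the threshold, 5 passed the threshold and 0 reversed; the 5 are Itga5, Itga7, Itga3, Itgb3 and Itga10 without wild type replicate 1. Leaving out single arrays, the number of integrin and laminin genes past an adjusted p of 0.05 ran from 0 to 5, those with groups that do not overlap from 3 to 7, those lower at an unadjusted p under 0.05 from 2 to 4 (4 without wild type replicate 4, where 7% of all tested genes were), and their median from 0.047 to 0.107. With a floor of 6 the last count was 1, since Itgax was no longer tested (8.39% of all tested genes). By the probe set with the largest SD, 1 gene had groups that do not overlap (6.51% of all tested genes), and with the adipocyte markers as covariate 5 genes were higher at an unadjusted p under 0.05; the cause was not tested. Over all genes, the count of 8 past the threshold was 19 with a floor of 6, 33 with trend and robust options, 73 with array weights, 2 with the adipocyte covariate and 2 to 1051 without single arrays. The labels do not say whether replicate numbers pair the arrays. Deviations of same-numbered arrays correlated at −0.36 to 0.21, and only knockout replicate 5 correlated best with its own number. So few arrays cannot settle whether they were paired. With the replicate block 0 genes of the array passed, and 6 of the 30 were higher and 3 lower at an unadjusted p under 0.05, where 7.63% and 6.08% of all tested genes were. Itgax, Lamb3, Itgal and Itgb7 have levels near background, which limits their precision.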

Other observations

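Other adhesion receptors of the vessel wall, such as syndecans, cadherins and the dystrophin-linked sarcoglycans, were listed beside the integrins. Of 30 tested, 2 were higher and 3 lower at an unadjusted p under 0.05 (16.7%, against 19.9% of all tested genes), 0 passed an adjusted p of 0.05 in limma, and the median was 0.018. Cdh5, the cadherin of endothelial junctions, was 8.64 to 8.96 on the knockout and 8.93 to 9.28 on the wild type arrays, a difference of −0.34 (SE 0.090, adjusted p 0.135, limma). Rpsa, a ribosomal protein also described as a laminin receptor, was 13.06 to 13.17 on the knockout and 12.92 to 13.00 on the wild type arrays (0.16, SE 0.048), with groups that did not overlap. Sdc4, a syndecan that acts with integrins on fibronectin, was 12.85 to 13.05 on the knockout and 12.97 to 13.35 on the wild type arrays (−0.25, SE 0.086).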
